A study of Mus musculus with 16 samples.

Results

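Placode cells (Pc) were compared with the surrounding epidermis (Epi), gene by gene, in skin of mouse embryos at embryonic day 14.5. Both fractions were sorted by fluorescence-activated cell sorting, and each had 2 libraries, numbered 1 and 2. A gene entered the comparison when it reached an FPKM of at least 1 in 2 or more of these 4 libraries. FPKM is the number of sequenced fragments per kilobase of transcript scaled to the fragments of its library. Of the 23235 rows of the deposited table, 11695 met this rule. The labels write the names only as Pc and Epi, and the reading as placode and epidermis comes from general knowledge of the study. Both fractions were taken from skin of the same age, and the labels name no treatment. The strain, the genotype and the markers or reporters used for the sort are not stated in the sources used here, and a marker used to sort the cells would differ by choice. No label says that libraries 1 and 2 came from separate embryos or litters. The p-values therefore refer to the spread between libraries alone, which may be technical. That spread was estimated over all 16 libraries of the 8 sorted fractions. Per the labels' protocols, RNA had an integrity number of at least 8.8 and was amplified to cDNA before library construction.

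A placode is the local thickening of embryonic epidermis from which a hair follicle grows. Wnt signals from the epidermis and ectodysplasin acting on its receptor Edar start it, and the placode then sends FGF20, sonic hedgehog and other signals to the dermis below. The epidermis between placodes stratifies at the same time. Its basal cells move up, switch from keratins 5 and 14 to keratins 1 and 10, and go on to make the desmosomes, the cornified envelope and the barrier lipids of the outer skin.

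Depth is not stated with the values, and the table gives no counts. The FPKM of a library summed to 531357 and 542359 in Pc, and to 606437 and 567322 in Epi, and between 11158 and 11438 of the 11695 genes reached 1 FPKM in a library. Across genes, on the log2(FPKM + 1) scale, Pearson's r was 0.962 between the Pc libraries, 0.973 between the Epi libraries and 0.969 between the fraction means. These r values describe genes, which are not independent replicates. Among the genes above the threshold, 13 small RNA genes were listed at exactly 0 in at least 1 of the 4 libraries and above 20 FPKM in another, which may be failed estimates. In bulk samples such as these, fewer cells of a type and less RNA per cell cannot be told apart.

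The 5 genes given as markers of the fractions followed the names. Dkk4 (chromosome 8, 22624043 to 22627546), a secreted inhibitor of Wnt signalling, measured 20.1 and 18.1 FPKM in Pc, against 4.54 and 3.77 FPKM in Epi. Edar (chromosome 10, 58600788 to 58675696), the ectodysplasin receptor, measured 13.9 and 13.6 FPKM in Pc, against 6.24 and 4.82 FPKM in Epi. Fgf20 (chromosome 8, 40279166 to 40286953), which signals to the dermis, measured 3.59 and 3.93 FPKM in Pc, against 1.30 and 0.444 FPKM in Epi. All 3 were higher in both Pc libraries, and none was absent from Epi. Dsc1 (chromosome 18, 20084703 to 20114773), a desmosomal cadherin of differentiated keratinocytes, measured 1.64 and 0.878 FPKM in Pc, against 15.2 and 17.4 FPKM in Epi. Sbsn (chromosome 7, 30751471 to 30756134), or suprabasin, measured 44.1 and 14.8 FPKM in Pc, against 197 and 192 FPKM in Epi. Both were lower in both Pc libraries, with Pc replicate 1 above Pc replicate 2. Positions are those of the deposited table on mm10.

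The 2 fractions differed more by what was lower in Pc than by what was higher. A gene was called when limma's adjusted p was under 0.05 and the difference of log2(FPKM + 1) was at least 1, in a fit that pairs the libraries by replicate number. Pc was higher in 59 of the 11695 genes (0.504%) and lower in 309 (2.64%). The higher genes differed modestly. Their median log2 difference was 1.18 and their largest 1.96, none reached 2, and the median of their mean levels was 12.1 FPKM in Pc and 4.74 FPKM in Epi. The lower genes had a median log2 difference of -1.50, 70 of them reached 2 in size, and the median of their mean levels was 2.58 FPKM in Pc and 10.7 FPKM in Epi. The Pc and Epi libraries were without overlap in all 59 higher genes and in 308 of the 309 lower genes, Prr24 being the exception. No called gene moved in opposite directions in the 2 pairs. A call selects for both traits, and their shares over all genes were not counted. Of the called genes, 5 of the 59 were under 1 FPKM in both Epi libraries (Cers4, Slc14a1, Nudt16, Lhx2 and Shh) and 59 of the 309 were under 1 FPKM in both Pc libraries. These passed the rule only through the fraction in which they were high.

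The call counts depended on the pairing, on single libraries and on the other fractions that share the estimate of spread. Fitted on the 4 Pc and Epi libraries alone, limma called 0 genes higher and 0 lower, with a smallest adjusted p of 0.0873 and 2555 genes at an unadjusted p under 0.05. Without the replicate block, 22 genes (0.188%) were higher and 194 (1.66%) were lower in Pc, and all 216 were also called with it. With 1 of the 4 libraries left out, between 28 and 66 genes were called higher and between 150 and 285 lower, and 14 higher and 138 lower genes kept the call in all 4 of these fits. The fewest lower genes were left without Pc replicate 2, 150 in all, of which 148 were among the 309. Scaling every library to the same total gave a median log2 difference of 0.09 over all tested rows, and 101 higher and 262 lower genes, so that 27.8% of the calls were higher in place of 16.0%. The lower genes also separated the Pc libraries from each other. In 270 of the 309 genes Pc replicate 1 was above Pc replicate 2, against 5727 of the 11695 genes in all, with a median log2 difference between the 2 Pc libraries of 0.45, against 0.03 between the 2 Epi libraries.

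**Figure D1:**
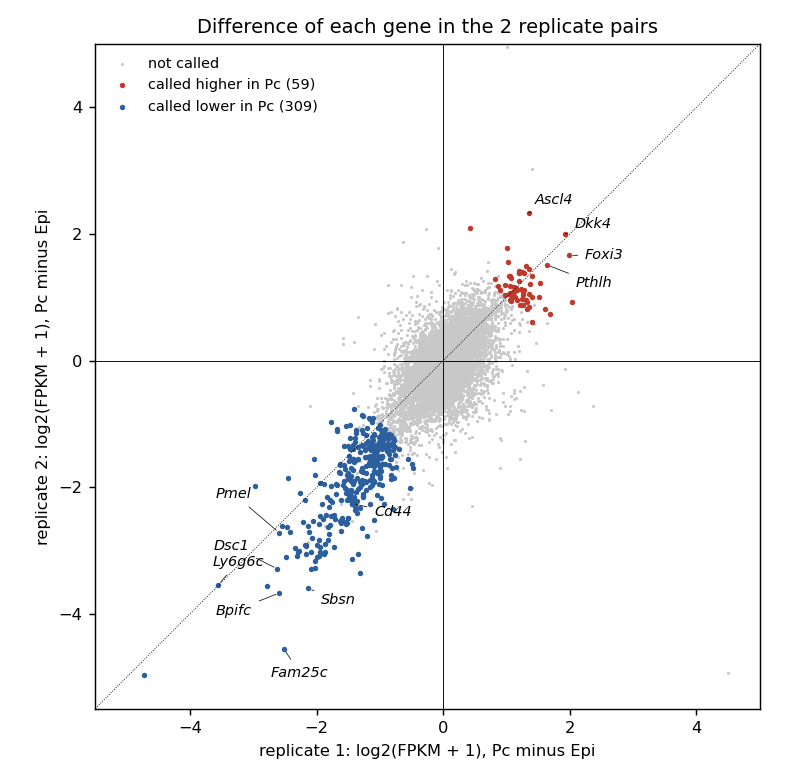
Difference of log2(FPKM + 1), Pc minus Epi, in replicate pair 1 (horizontal axis) and replicate pair 2 (vertical axis). Each point is 1 of the 11695 genes, red where called higher in Pc (59), blue where called lower (309), grey otherwise, and the dotted line marks equal differences. The called genes lie in the lower left and upper right parts of the plot, the lower genes spread over a wider range than the higher ones, and 8 uncalled genes lie outside the axes, which run from -5.5 to 5.0.

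Compared with the 6 other sorted fractions, 34 of the 59 higher genes had their highest mean FPKM in Pc and 4 had it in the fibroblast fraction (Slc14a1, Fn1, Depdc1a and Sgol2). Of the 309 lower genes, 230 had their highest mean FPKM in Epi and 32 in the melanocyte fraction (Mc). A gene called between Pc and Epi cannot be highest in the lower of them. The shares over all genes were not counted, and these counts are not a measure of specificity. The gene lists used here hold 2138 of the 11695 genes and 188 of the 368 called ones.

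**Figure D2:**
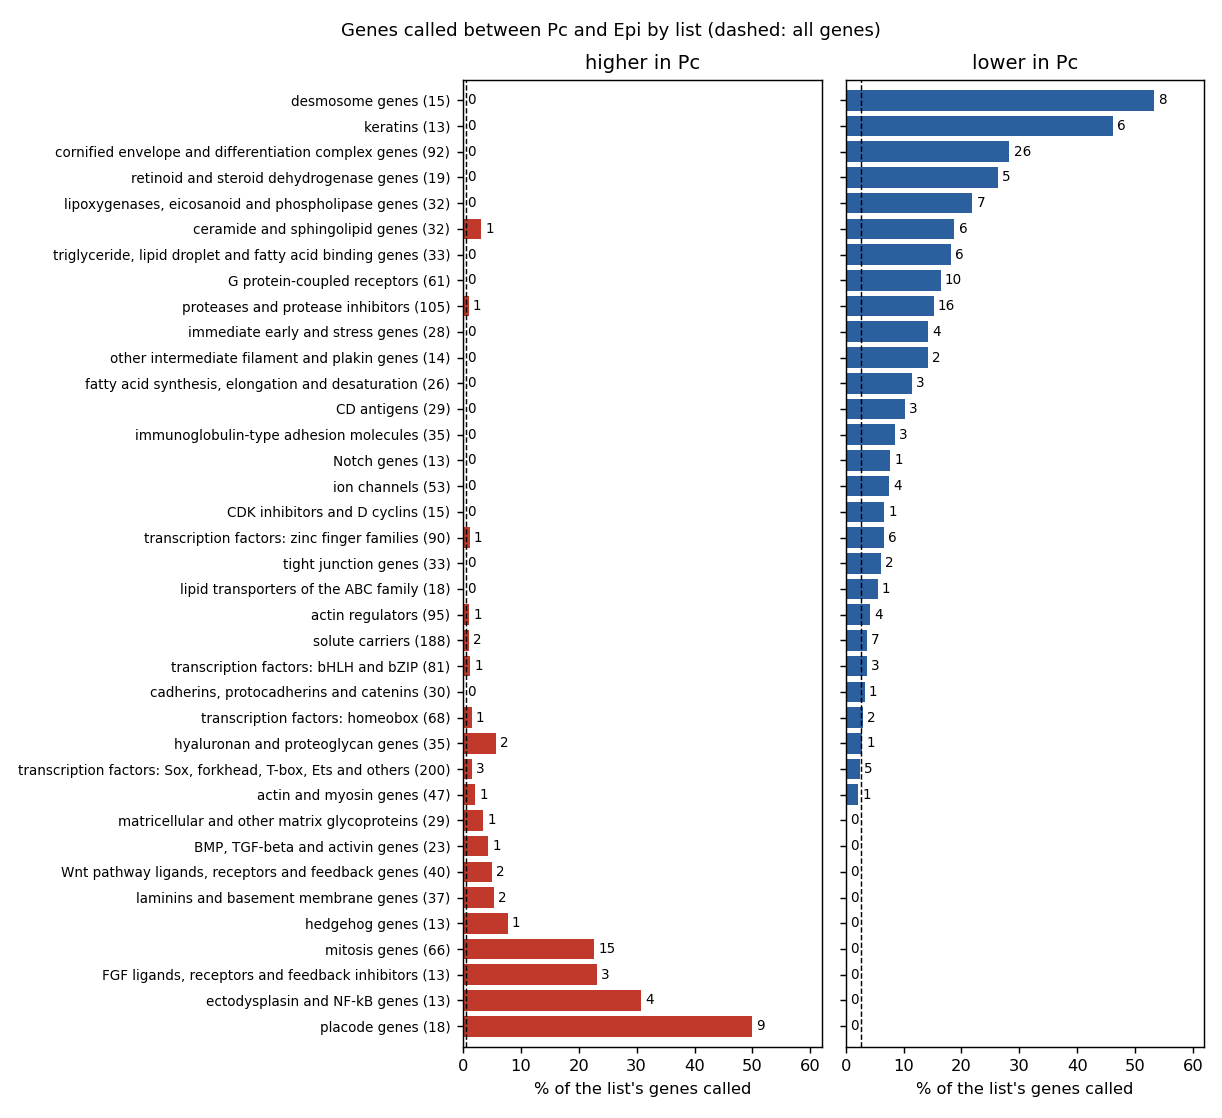
Share of the genes of each list called higher in Pc (left, red) and lower in Pc (right, blue), in percent of the list's genes above the threshold, whose number stands in brackets. The figure at each bar is the number of genes called, the dashed lines mark 0.504% and 2.64% of all 11695 genes, and the lists drawn have at least 13 genes and at least 1 call, cell type markers aside. Placode, ectodysplasin, FGF and mitosis lists have their calls on the left, and desmosome, keratin, cornified envelope and lipid lists have theirs on the right, apart from 1 ceramide gene.

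Several genes known from the placode were higher in Pc. Of 18 placode genes, 9 rose and none fell, with a median log2 difference of 1.12 against 0.02 over all 11695 genes, and all 18 had a positive difference. The list was written with earlier results of these libraries known and is not independent evidence of its direction. Among secreted signals, Dkk4 rose most (log2 difference of 1.96, SE 0.19, adjusted p = 0.000246). Pthlh, the parathyroid hormone-related peptide, measured 8.19 and 5.40 FPKM in Pc, against 1.94 and 1.25 FPKM in Epi (log2 difference of 1.57, SE 0.20, adjusted p = 0.000778). Fgf20 had a log2 difference of 1.38 (SE 0.20, adjusted p = 0.00145). Bmp2, a bone morphogenetic protein, measured 10.4 and 13.8 FPKM in Pc, against 4.44 and 5.04 FPKM in Epi (log2 difference of 1.18, SE 0.26, adjusted p = 0.0181). Shh, or sonic hedgehog, was among the least abundant, with 2.64 and 1.33 FPKM in Pc, against 0.674 and 0.0457 FPKM in Epi (log2 difference of 1.14, SE 0.22, adjusted p = 0.00830). The locus that the table gives for Shh (chromosome 5, 28456840 to 28719209) is wider than the gene.

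The receptor Edar had a log2 difference of 1.18 (SE 0.19, adjusted p = 0.00335). Among transcription factors of the list, Foxi3, a forkhead factor of ectodermal organs, measured 31.1 and 17.3 FPKM in Pc, against 7.09 and 4.80 FPKM in Epi (log2 difference of 1.82, SE 0.42, adjusted p = 0.0241). Trps1, a zinc finger factor of the GATA type, measured 4.77 and 5.14 FPKM in Pc, against 1.42 and 2.14 FPKM in Epi (log2 difference of 1.11, SE 0.18, adjusted p = 0.00293). Lhx2, a homeobox factor of hair follicle stem cells, measured 2.27 and 1.05 FPKM in Pc, against 0.370 and 0 FPKM in Epi (log2 difference of 1.15, SE 0.29, adjusted p = 0.0352), the value of 0 being as listed. The libraries of the 2 fractions did not overlap in these genes, as in every gene called higher. Dkk4, Pthlh and Fgf20 kept their calls whichever of the 4 libraries was left out. Bmp2, Foxi3 and Lhx2 lost their calls whichever library was left out (largest adjusted p 0.170 to 0.261) and Shh lost it without Pc replicate 1 or Epi replicate 2 (adjusted p up to 0.129). Edar lost the call without Epi replicate 2 (adjusted p up to 0.0573) and Trps1 lost it without Pc replicate 1 (log2 difference of 0.88). Trps1, Bmp2, Foxi3 and Lhx2 were not called without the replicate block (adjusted p 0.133 to 0.242). Among members not called, Wnt10b, a Wnt ligand, measured 41.8 and 25.1 FPKM in Pc, against 19.3 and 11.7 FPKM in Epi (log2 difference of 1.06, adjusted p = 0.0684). Lef1, the nuclear partner of beta-catenin, measured 89.3 and 84.8 FPKM in Pc, against 54.6 and 50.3 FPKM in Epi, where the adjusted p of 0.00493 passed but the log2 difference of 0.72 was under 1. Sostdc1, an inhibitor of Wnt and BMP signals, measured 152 and 204 FPKM in Pc, against 109.9 and 115 FPKM in Epi (log2 difference of 0.64, adjusted p = 0.319). Cdh3, or P-cadherin, measured 136 and 106 FPKM in Pc, against 80 and 58.3 FPKM in Epi (log2 difference of 0.81, adjusted p = 0.169).

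The 250 bases before the start of Edar are shown because Wnt signalling through Lef1 is known to act in placode formation. They were taken from RefSeq on GRCm38.p6 (chr10:58675697-58675946, minus strand) and are written 5′ to 3′ along the gene. The capitals mark the letters CTTTGAT, a core of the TCF/LEF motif, which begins 233 bases before the start.
Edar: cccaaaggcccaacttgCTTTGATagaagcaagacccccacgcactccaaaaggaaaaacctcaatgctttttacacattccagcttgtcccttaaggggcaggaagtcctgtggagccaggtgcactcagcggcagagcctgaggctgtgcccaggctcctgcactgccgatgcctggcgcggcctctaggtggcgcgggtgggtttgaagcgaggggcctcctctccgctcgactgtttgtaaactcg
Searched on both strands, CTTTGAT occurred in 3.23% of all 27025 promoters of this length and in 2.21% of the 8650 promoters found for the genes compared. It was found in 1 of the 4 placode genes called higher that had a promoter in the table. A match of letters is not a binding site.

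The pathways that placodes use were represented by a few members each. Of 13 ectodysplasin and NF-kB genes 4 rose and none fell (median log2 difference 0.56). Besides Edar these were Ltb, Relb and Tnfaip3. Ltb, or lymphotoxin beta, a cytokine that NF-kB induces, measured 5.19 and 1.70 FPKM in Pc, against 1.33 and 0.0636 FPKM in Epi (log2 difference of 1.38, SE 0.33, adjusted p = 0.0317). Relb, an NF-kB subunit, measured 6.26 and 2.74 FPKM in Pc, against 1.76 and 0.875 FPKM in Epi (log2 difference of 1.20, SE 0.19, adjusted p = 0.00337). Tnfaip3, which restrains NF-kB, measured 6.27 and 6.22 FPKM in Pc, against 3.13 and 1.96 FPKM in Epi (log2 difference of 1.05, SE 0.24, adjusted p = 0.0241). Edaradd, the adaptor of Edar, measured 16.2 and 21.3 FPKM in Pc, against 12.7 and 12.3 FPKM in Epi (log2 difference of 0.53, adjusted p = 0.128). Of 13 FGF genes 3 rose and none fell (median 0.59), Fgf20 with the transcription factor Etv4 and the phosphatase Dusp6, both known as FGF targets. Etv4 measured 6.64 and 2.27 FPKM in Pc, against 2.04 and 0.871 FPKM in Epi (log2 difference of 1.07, SE 0.20, adjusted p = 0.00797). Dusp6 measured 20.9 and 22.3 FPKM in Pc, against 9.39 and 10.9 FPKM in Epi (log2 difference of 1.03, SE 0.18, adjusted p = 0.00544). The Pc libraries lay above the Epi libraries in all of these, as in every gene called higher, and a call selects for this. Etv4 lost the call without Pc replicate 1, or Epi replicate 1 or 2 (adjusted p up to 0.110), and Tnfaip3 lost it without Pc replicate 1 or 2, or Epi replicate 2 (adjusted p up to 0.290). Ltb lost the call without Pc replicate 1 or Epi replicate 2 (adjusted p up to 0.334) and Dusp6 lost it without Pc replicate 2 or Epi replicate 1 (adjusted p up to 0.0736). Relb lost the call without Pc replicate 1 (adjusted p up to 0.0511). Ltb, Relb, Tnfaip3 and Etv4 were not called without the replicate block (adjusted p 0.0750 to 0.581).

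Of 40 Wnt genes 2 rose and none fell (median 0.31), Dkk4 and Wif1, another secreted Wnt inhibitor. Wif1 measured 4.79 and 2.51 FPKM in Pc, against 1.43 and 0.332 FPKM in Epi (log2 difference of 1.33, SE 0.25, adjusted p = 0.00762), and its highest mean was 86.7 FPKM in the dermal condensate fraction, with 33.3 FPKM in the fibroblast fraction. Of 13 hedgehog genes Shh alone was called (median 0.50). Ptch1, the hedgehog receptor and a target of the pathway, measured 38.8 and 26.6 FPKM in Pc, against 26.2 and 18.3 FPKM in Epi, where the adjusted p of 0.0200 passed and the log2 difference of 0.54 did not. Gas1, a hedgehog co-receptor, measured 53.6 and 38.1 FPKM in Pc, against 35.8 and 19.7 FPKM in Epi, with an adjusted p of 0.0282 and a log2 difference of 0.75. Of 23 BMP, TGF-beta and activin genes Bmp2 alone was called (median 0.25). On the other side stood Notch3, a Notch receptor and the 1 called of 13 Notch genes (median -0.44), with 5.34 and 1.70 FPKM in Pc, against 15.6 and 12.8 FPKM in Epi (log2 difference of -1.87, SE 0.25, adjusted p = 0.000928). Hes1, a Notch target, measured 30.9 and 25.9 FPKM in Pc, against 61 and 41.3 FPKM in Epi, with an adjusted p of 0.00820 and a log2 difference of -0.80, under the threshold of size. None of 10 EGF family genes (median -0.39), 22 semaphorin genes (median 0.12) or 16 ephrin genes (median 0.00) was called. Erbb2, a receptor tyrosine kinase, came nearest by p, with 32 and 19.9 FPKM in Pc, against 51.1 and 44.3 FPKM in Epi (log2 difference of -0.89, adjusted p = 0.0270). Notch3 kept the call whichever of the 4 libraries was left out. Wif1 lost the call without Pc replicate 1 or Epi replicate 2 (adjusted p up to 0.116). Wif1 and Notch3 were not called without the replicate block (adjusted p 0.0797 to 0.180).

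Other genes that rose most in Pc belong to none of the signalling lists. Ascl4 (chromosome 10, 85928491 to 85929647), a bHLH transcription factor, measured 7.63 and 9.73 FPKM in Pc, against 2.38 and 1.13 FPKM in Epi (log2 difference of 1.84, SE 0.27, adjusted p = 0.00171), the second largest rise, and its mean stayed at or under 0.371 FPKM in the melanocyte and fibroblast fractions. Gm5480, a gene without a described role, measured 11.2 and 6.42 FPKM in Pc, against 1.98 and 2.91 FPKM in Epi (log2 difference of 1.48, SE 0.22, adjusted p = 0.00173). Sv2b, a glycoprotein of synaptic vesicles, measured 7.61 and 10.4 FPKM in Pc, against 2.78 and 3.28 FPKM in Epi (log2 difference of 1.30, SE 0.26, adjusted p = 0.0101). Ntf5, the neurotrophin 4/5 gene, measured 7.54 and 5.17 FPKM in Pc, against 3.19 and 1.09 FPKM in Epi (log2 difference of 1.30, SE 0.33, adjusted p = 0.0423). Socs2, a suppressor of cytokine signalling, measured 7.10 and 6.80 FPKM in Pc, against 2.54 and 1.99 FPKM in Epi (log2 difference of 1.29, SE 0.23, adjusted p = 0.00509). In each of these the lower Pc library stood above the higher Epi library, as in every gene called higher. Ascl4 and Gm5480 kept their calls whichever of the 4 libraries was left out. Sv2b lost the call without Pc replicate 2, or Epi replicate 1 or 2 (adjusted p up to 0.151), and Ntf5 and Socs2 lost theirs without Pc replicate 1 or 2, or Epi replicate 2 (largest adjusted p 0.0868 to 0.414). Ntf5 was not called without the replicate block (adjusted p = 0.127).

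The mitosis list had more genes called higher in Pc than any other of the 65 lists. All 66 genes of the list passed the threshold of 1 FPKM and all 66 had a positive difference, 15 rose and none fell, and the median log2 difference was 0.89. Aurka (chromosome 2, 172356196 to 172370506), a kinase of the spindle poles, measured 37.7 and 42.2 FPKM in Pc, against 16 and 15.5 FPKM in Epi (log2 difference of 1.29, SE 0.21, adjusted p = 0.00309). Prc1, which bundles microtubules of the central spindle, measured 62.5 and 71.2 FPKM in Pc, against 23.9 and 33.9 FPKM in Epi (log2 difference of 1.20, SE 0.13, adjusted p = 0.000314). Cdc25c, the phosphatase that activates the mitotic kinase, measured 26.4 and 27 FPKM in Pc, against 11.4 and 11.6 FPKM in Epi (log2 difference of 1.15, SE 0.18, adjusted p = 0.00271). Cenpf, a kinetochore protein, measured 39.6 and 56 FPKM in Pc, against 17.1 and 25.2 FPKM in Epi (log2 difference of 1.14, SE 0.14, adjusted p = 0.000587). Ccnf, an F-box cyclin, measured 29.4 and 21.9 FPKM in Pc, against 11.2 and 10.9 FPKM in Epi (log2 difference of 1.13, SE 0.24, adjusted p = 0.0172). Depdc1a measured 9.30 and 18.1 FPKM in Pc, against 3.78 and 7.97 FPKM in Epi (log2 difference of 1.10). Its lower Pc library lay close to its higher Epi library, and within the pairs Pc was above Epi by 1.11 in pair 1 and 1.09 in pair 2 on the log2 scale. Ube2c, the ubiquitin carrier of the anaphase-promoting complex, reached 286 and 306 FPKM in Pc, against 127 and 157 FPKM in Epi. Top2a, a DNA topoisomerase of dividing cells, reached 162 and 228 FPKM in Pc, against 77 and 110.3 FPKM in Epi, and Kif11, a spindle motor, 72.2 and 108 FPKM in Pc, against 34.5 and 51.7 FPKM in Epi. Their log2 differences were 1.06, 1.05 and 1.05. Prc1, Cdc25c, Cenpf, Depdc1a and Top2a kept their calls whichever of the 4 libraries was left out. Ccnf lost the call whichever library was left out (adjusted p up to 0.129) and Aurka lost it without Pc replicate 2 or Epi replicate 2 (adjusted p up to 0.0522). Kif11 lost the call without Pc replicate 1 or Epi replicate 2 (log2 difference of 0.99) and Ube2c lost it without Epi replicate 1 (log2 difference of 0.96). Without the replicate block 4 of the 15 were called, Aurka, Prc1, Cdc25c and Ube2c. Cenpf, Depdc1a, Top2a and Kif11 were higher in replicate 2 than in replicate 1 of both fractions.

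Genes of DNA synthesis gave no calls. None of 49 DNA replication genes passed the thresholds (median log2 difference 0.04). Pcna, the sliding clamp of replication, measured 154 and 221 FPKM in Pc, against 187 and 215 FPKM in Epi (log2 difference of -0.12, adjusted p = 0.737), and Tk1, a thymidine kinase, 96.7 and 63.6 FPKM in Pc, against 98.8 and 82.7 FPKM in Epi (log2 difference of -0.20, adjusted p = 0.738). Of 15 genes for CDK inhibitors and D cyclins only Cdkn1a, the inhibitor p21, was called (median 0.13). Cdkn1a was lower in Pc, with 6.29 and 4.13 FPKM in Pc, against 20 and 29 FPKM in Epi (log2 difference of -2.04, SE 0.30, adjusted p = 0.00225), and kept the call in every fit with a library left out. Ccnd2, or cyclin D2, measured 117 and 161 FPKM in Pc, against 93.6 and 102 FPKM in Epi, where the adjusted p of 0.0205 passed and the log2 difference of 0.49 did not. Ccnd1 measured 17.6 and 18.4 FPKM in Pc, against 17.3 and 21 FPKM in Epi (log2 difference of -0.08, adjusted p = 0.949), and Cdkn1c, the inhibitor p57, 35.7 and 25.9 FPKM in Pc, against 32.9 and 23.5 FPKM in Epi (log2 difference of 0.13, adjusted p = 0.860).

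The promoters of 4 mitosis genes are shown because genes of this phase are known to share CCAAT boxes and a cell cycle homology region near their starts. Each is the 250 bases before the start, from RefSeq on GRCm38.p6, written 5′ to 3′ along the gene: Ube2c (chr2:164769679-164769928, plus strand), Aurka (chr2:172370571-172370820, minus strand), Top2a (chr11:99024190-99024439, minus strand) and Kif11 (chr19:37376132-37376381, plus strand). Capitals mark CCAAT or its reverse complement ATTGG, and TTTGAA or its reverse complement TTCAAA.
Ube2c: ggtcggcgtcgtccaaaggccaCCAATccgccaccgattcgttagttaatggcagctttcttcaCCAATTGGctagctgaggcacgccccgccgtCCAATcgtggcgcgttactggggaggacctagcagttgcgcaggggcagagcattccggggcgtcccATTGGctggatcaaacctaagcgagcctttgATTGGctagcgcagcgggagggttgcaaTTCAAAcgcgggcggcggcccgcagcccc
Aurka: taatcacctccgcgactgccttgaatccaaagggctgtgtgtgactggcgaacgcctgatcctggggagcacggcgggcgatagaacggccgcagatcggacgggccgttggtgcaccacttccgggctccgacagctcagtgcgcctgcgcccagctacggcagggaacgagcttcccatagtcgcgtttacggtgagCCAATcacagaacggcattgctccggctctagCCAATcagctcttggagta
Top2a: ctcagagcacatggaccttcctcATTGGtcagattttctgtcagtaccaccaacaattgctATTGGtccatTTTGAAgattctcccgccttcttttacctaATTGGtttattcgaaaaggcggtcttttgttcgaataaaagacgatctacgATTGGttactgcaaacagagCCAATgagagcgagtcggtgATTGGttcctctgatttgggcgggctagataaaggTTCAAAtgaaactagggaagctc
Kif11: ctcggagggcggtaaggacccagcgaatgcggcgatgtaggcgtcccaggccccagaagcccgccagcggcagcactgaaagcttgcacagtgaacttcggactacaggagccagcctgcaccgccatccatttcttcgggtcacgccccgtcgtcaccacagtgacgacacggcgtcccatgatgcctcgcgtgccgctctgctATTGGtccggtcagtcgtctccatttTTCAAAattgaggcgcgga
Both strands were searched, and in Ube2c a CCAAT and an ATTGG overlap in the run of 8 capitals. CCAAT occurred 6 times in Ube2c, 6 times in Top2a, 2 times in Aurka and 1 time in Kif11. It was found in 12 of the 13 mitosis genes called higher that had a promoter in the table (92.3%), in 36.8% of the 8650 promoters of the genes compared and in 34.5% of all promoters. TTTGAA was found in 5 of the 13 (38.5%), 10.3% and 16.3%, and lay 29 bases before the start in Ube2c and 19 bases before it in Kif11. These matches describe the sequences and were not tested as sites.

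**Figure D3:**
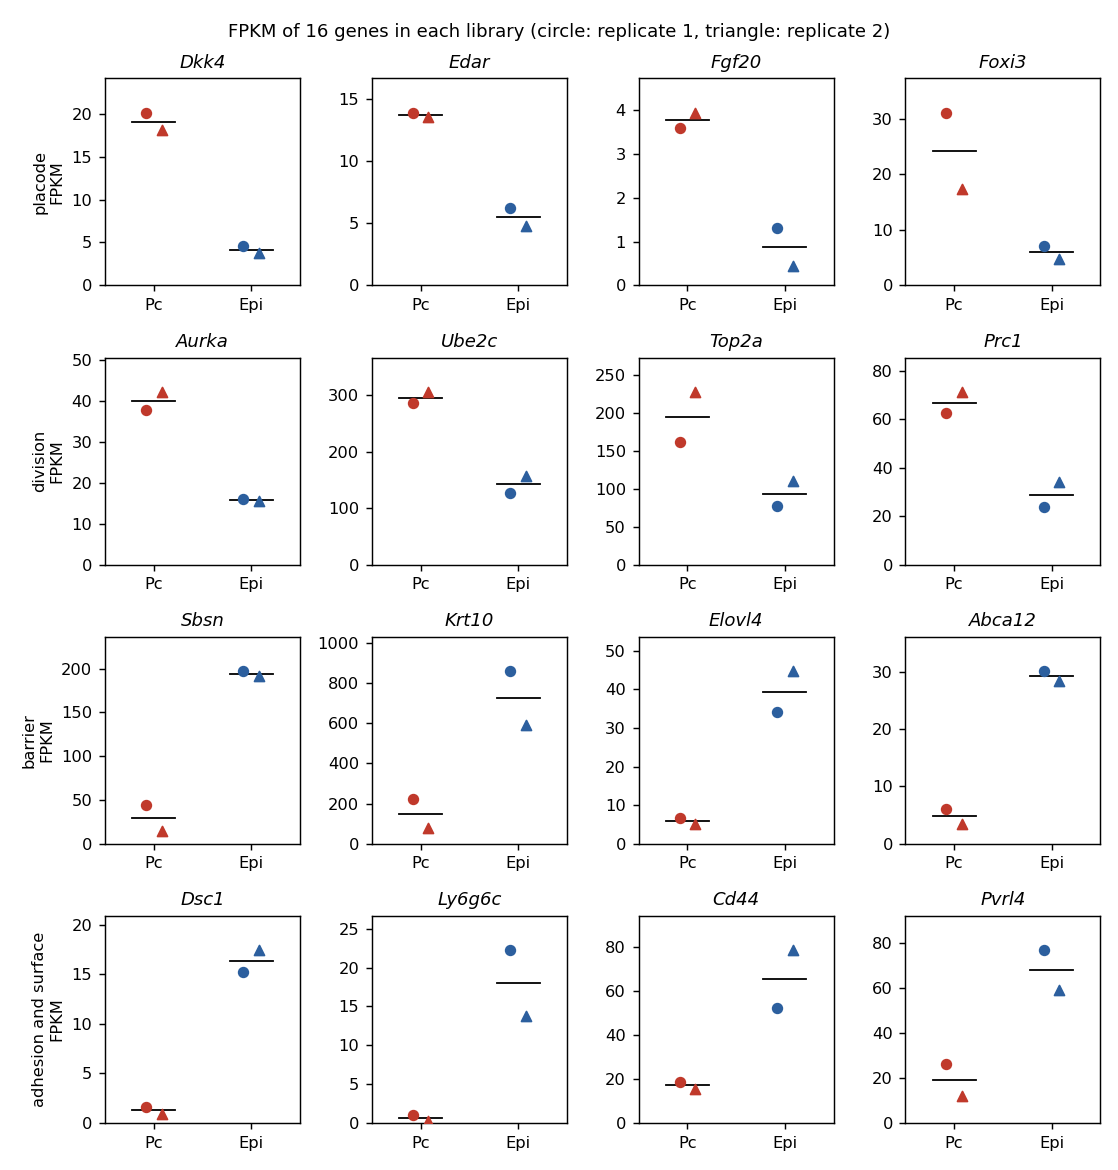
FPKM (vertical axes, linear, each from 0) of 16 genes in the Pc libraries (red) and the Epi libraries (blue), with a circle for replicate 1, a triangle for replicate 2 and a bar at the mean of the 2 libraries. Placode and division genes (upper rows) sit higher in Pc and barrier, adhesion and surface genes (lower rows) sit higher in Epi. Aurka is at 37.7 and 42.2 FPKM in Pc and 16.0 and 15.5 FPKM in Epi, and Abca12 at 6.14 and 3.50 FPKM in Pc and 30.1 and 28.4 FPKM in Epi.

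Genes of keratinocyte differentiation were among those lower in Pc. The suprabasal and cornified envelope lists together held 33 of the 309 lower genes (10.7%). These lists hold 14 and 92 of the 11695 genes, with some genes in both. The share of both lists together over all genes was not counted. Of 14 suprabasal keratinocyte markers 11 fell and none rose (median log2 difference -2.36). Krt77, a keratin of suprabasal cells, measured 9.69 and 3.61 FPKM in Pc, against 72.2 and 53.4 FPKM in Epi (log2 difference of -3.17, SE 0.47, adjusted p = 0.00230). Krt1 measured 191 and 78 FPKM in Pc, against 855 and 659 FPKM in Epi (log2 difference of -2.61, SE 0.57, adjusted p = 0.0302), and its partner Krt10 222 and 76.7 FPKM in Pc, against 859 and 594 FPKM in Epi (log2 difference of -2.44, SE 0.55, adjusted p = 0.0358). Tgm3, a transglutaminase that crosslinks the envelope, measured 2.58 and 1.59 FPKM in Pc, against 17 and 19.2 FPKM in Epi (log2 difference of -2.65, SE 0.28, adjusted p = 0.000310). Sbsn had a log2 difference of -2.87 (SE 0.36, adjusted p = 0.000845). Epi stood above both Pc libraries in all of these, as in 308 of the 309 lower genes, and a call selects for this. In these genes Pc replicate 2 was the lowest library. Krtdap, a keratinocyte differentiation protein, was the most abundant marker, at 951 and 544 FPKM in Pc, against 4198 and 3984 FPKM in Epi, and did not pass the test (log2 difference of -2.51, adjusted p = 0.133). The summed FPKM of the 16 markers was 1671.5 and 856 in Pc, against 7015 and 6170.4 in Epi. Krt77, Tgm3 and Sbsn kept their calls whichever of the 4 libraries was left out. Krt1 and Krt10 lost their calls whichever library was left out (largest adjusted p 0.239 to 0.264). Krt77, Krt1 and Krt10 were not called without the replicate block (adjusted p 0.0540 to 0.253). None of 17 basal keratinocyte markers was called (median 0.30), and their summed FPKM was 5654 and 4352.5 in Pc and 5426 and 4662 in Epi. Krt5 measured 1649 and 1136 FPKM in Pc, against 1355 and 1104 FPKM in Epi, Krt14 1166 and 735 FPKM in Pc, against 897 and 653 FPKM in Epi and Krt15 926 and 649 FPKM in Pc, against 720.5 and 473 FPKM in Epi.

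The cornified envelope list, which also takes in the genes of the epidermal differentiation complex, had 26 of 92 genes lower and none higher (median -0.39), or 14 without the replicate block. Fam25c measured 9.44 and 0.887 FPKM in Pc, against 59.1 and 43.2 FPKM in Epi (log2 difference of -3.54, SE 0.63, adjusted p = 0.00797). Them5, a thioesterase, measured 34.9 and 17 FPKM in Pc, against 138 and 146 FPKM in Epi (log2 difference of -2.49, SE 0.53, adjusted p = 0.0184). S100a14, a calcium-binding protein, measured 41.9 and 23.8 FPKM in Pc, against 154 and 134 FPKM in Epi (log2 difference of -2.15, SE 0.42, adjusted p = 0.0115). Tmprss4, a membrane serine protease, measured 1.08 and 0.232 FPKM in Pc, against 8.93 and 4.23 FPKM in Epi (log2 difference of -2.17, SE 0.25, adjusted p = 0.000492). Lor, or loricrin, the main protein of the mature envelope, was still low in both, with 2.38 and 0.478 FPKM in Pc, against 7.16 and 2.01 FPKM in Epi, and was not called (log2 difference of -1.15, adjusted p = 0.0517). Tmprss4 kept the call whichever of the 4 libraries was left out. Them5 and S100a14 lost their calls without Pc replicate 1 or 2, or Epi replicate 2 (largest adjusted p 0.132 to 0.193), and Fam25c lost it without Pc replicate 2 or Epi replicate 2 (adjusted p up to 0.0918). Them5 and S100a14 were not called without the replicate block (adjusted p 0.0713 to 0.121). Of 105 genes for proteases and their inhibitors 16 fell and 1 rose (median -0.10). Casp14, a caspase of cornifying cells, measured 3.30 and 2.5 FPKM in Pc, against 14 and 16.4 FPKM in Epi (log2 difference of -2.06, SE 0.25, adjusted p = 0.000560). Klk11, a kallikrein, measured 3.09 and 0.753 FPKM in Pc, against 11.4 and 8.76 FPKM in Epi (log2 difference of -2.04). Serpinb12 measured 6.05 and 3.75 FPKM in Pc, against 17.4 and 22.9 FPKM in Epi (log2 difference of -1.86). Serpinb3b and Serpinb3c fell as well, but these belong to a cluster of near-identical genes whose reads may be split between copies. The 1 gene that rose was Serpinb1b, with 2.71 and 8.23 FPKM in Pc, against 1.76 and 1.16 FPKM in Epi (log2 difference of 1.26). Casp14 and Klk11 kept their calls whichever of the 4 libraries was left out. Serpinb1b lost the call without Pc replicate 2, or Epi replicate 1 or 2 (adjusted p up to 0.297), and Serpinb12 lost it without Pc replicate 2 or Epi replicate 2 (adjusted p up to 0.117). Serpinb1b was not called without the replicate block (adjusted p = 0.0748).

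The 250 bases before the start of Sbsn are shown as the promoter of a differentiation marker (chr7:30751221-30751470, plus strand, RefSeq, GRCm38.p6). The capitals mark TGAATCA, a match to the AP-1 motif TGANTCA, which begins 119 bases before the start.
Sbsn: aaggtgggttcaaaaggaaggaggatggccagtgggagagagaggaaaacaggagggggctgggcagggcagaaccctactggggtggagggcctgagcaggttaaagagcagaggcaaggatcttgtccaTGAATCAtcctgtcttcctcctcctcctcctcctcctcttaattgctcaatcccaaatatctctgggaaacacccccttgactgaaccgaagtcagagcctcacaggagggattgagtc
TGANTCA, which with its reverse complement covers both strands, occurred in 20 of the 213 promoters found for the lower genes (9.39%), in 3.84% of the promoters of the genes compared and in 6.87% of all promoters.

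Periderm is the flat cell layer that covers the embryonic epidermis, and some of its markers fell. Of 11 periderm markers 6 fell and none rose (median -1.31), Ly6g6c, Ly6d, Sprr1a, Grhl3, Krt4 and Krt19. Their list shares Grhl3 with the suprabasal list. Sprr1a, a small proline-rich envelope protein, measured 0.196 and 0.236 FPKM in Pc, against 3.62 and 3.70 FPKM in Epi (log2 difference of -1.94, SE 0.17, adjusted p = 0.000223), and has close copies among which reads may be split. Krt4 measured 0.482 and 0.213 FPKM in Pc, against 2.90 and 1.96 FPKM in Epi (log2 difference of -1.34, SE 0.19, adjusted p = 0.00153), and Krt19 1.79 and 1.06 FPKM in Pc, against 3.94 and 6.18 FPKM in Epi (log2 difference of -1.31, SE 0.31, adjusted p = 0.0276). The summed FPKM of the 15 markers was 136 and 86.0 in Pc, against 228 and 232.5 in Epi, with Krt13 listed at 0 in all 4 libraries. Sprr1a and Krt4 kept their calls whichever of the 4 libraries was left out. Krt19 lost the call without Pc replicate 1 or 2, or Epi replicate 2 (adjusted p up to 0.303). Krt19 was not called without the replicate block (adjusted p = 0.0694). Suprabasal cells, periderm and basal cells were not separated in these libraries, and the part of their shares in the other differences was not tested.

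Every lipid list except the cholesterol list had genes called lower in Pc, and most genes of each list were not called. Of 26 genes for fatty acid synthesis and elongation 3 fell and none rose (median -0.33). Elovl4 (chromosome 9, 83778692 to 83806305), which elongates very long fatty acids, measured 6.70 and 5.03 FPKM in Pc, against 34.1 and 44.7 FPKM in Epi (log2 difference of -2.56, SE 0.28, adjusted p = 0.000354). Acsl1, which activates fatty acids with coenzyme A, measured 16.5 and 8.17 FPKM in Pc, against 51.8 and 52.5 FPKM in Epi (log2 difference of -2.07, SE 0.24, adjusted p = 0.000437). Elovl1 measured 22.1 and 14 FPKM in Pc, against 46.4 and 39.4 FPKM in Epi (log2 difference of -1.23, SE 0.16, adjusted p = 0.000774), at a locus that overlaps Cdc20. Of 32 ceramide and sphingolipid genes 6 fell and 1 rose (median -0.48). Cyp4f39, which hydroxylates the end of very long fatty acids, measured 3.74 and 0.679 FPKM in Pc, against 16.6 and 13 FPKM in Epi (log2 difference of -2.47, SE 0.32, adjusted p = 0.000789). Abca12, the lipid transporter of lamellar granules, measured 6.14 and 3.50 FPKM in Pc, against 30.1 and 28.4 FPKM in Epi (log2 difference of -2.42, SE 0.30, adjusted p = 0.000702). Pnpla1, an acyltransferase of skin ceramides, measured 1.02 and 0.589 FPKM in Pc, against 4.42 and 3.68 FPKM in Epi (log2 difference of -1.49). Sptlc3, a subunit of the enzyme that starts ceramide synthesis, measured 6.23 and 6.81 FPKM in Pc, against 17.3 and 21.8 FPKM in Epi (log2 difference of -1.44). Cers4, a ceramide synthase, was the exception and rose, with 3.72 and 1.93 FPKM in Pc, against 0.634 and 0.260 FPKM in Epi (log2 difference of 1.37). Elovl4, Acsl1, Elovl1, Cyp4f39, Abca12 and Pnpla1 kept their calls whichever of the 4 libraries was left out. Sptlc3 lost the call without Pc replicate 1 or 2, or Epi replicate 2 (adjusted p up to 0.115), and Cers4 lost it without Pc replicate 1 or Epi replicate 2 (adjusted p up to 0.189). Elovl1 was not called without the replicate block (adjusted p = 0.0750).

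Of 32 lipoxygenase, eicosanoid and phospholipase genes 7 fell and none rose (median -0.25). Pla2g2f, a secreted phospholipase of the epidermis, measured 4.98 and 1.38 FPKM in Pc, against 28.7 and 19.2 FPKM in Epi (log2 difference of -2.70, SE 0.32, adjusted p = 0.000492), and Pla2g4f, a cytosolic one, 1.81 and 0.304 FPKM in Pc, against 12.8 and 9.62 FPKM in Epi (log2 difference of -2.66, SE 0.27, adjusted p = 0.000297). Alox12, an arachidonate lipoxygenase, measured 6.62 and 3.06 FPKM in Pc, against 22.2 and 23.2 FPKM in Epi (log2 difference of -2.09, SE 0.40, adjusted p = 0.00873). Ptgds, also one of the 7, is a melanocyte marker and is given with those. Of 33 triglyceride and lipid droplet genes 6 fell and none rose (median -0.20). Bpifc, of the family of lipid-binding BPI proteins, measured 6.40 and 2.22 FPKM in Pc, against 43.7 and 39.8 FPKM in Epi (log2 difference of -3.13, SE 0.32, adjusted p = 0.000310). Dgat2, which makes triglycerides, measured 5.62 and 2.40 FPKM in Pc, against 19.4 and 18.7 FPKM in Epi (log2 difference of -2.08, SE 0.25, adjusted p = 0.000493). Lipm, a lipase of keratinocytes, measured 3.35 and 1.53 FPKM in Pc, against 16.6 and 23.3 FPKM in Epi (log2 difference of -2.64), at a locus that overlaps Ankrd22. Of 19 retinoid and steroid dehydrogenase genes 5 fell and none rose (median -0.32), led by Sdr16c6, with 2.18 and 1.34 FPKM in Pc, against 16.9 and 19 FPKM in Epi (log2 difference of -2.79). Rdh12, a retinol dehydrogenase, measured 8.04 and 2.51 FPKM in Pc, against 35.2 and 29.1 FPKM in Epi (log2 difference of -2.55). Pla2g2f, Pla2g4f, Bpifc, Dgat2, Lipm and Sdr16c6 kept their calls whichever of the 4 libraries was left out. Alox12 and Rdh12 lost their calls without Pc replicate 2 or Epi replicate 2 (largest adjusted p 0.112 to 0.132).

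None of 31 cholesterol genes was called, with a median log2 difference of -0.27. Hmgcs1, an early enzyme of sterol synthesis, measured 46.9 and 70.8 FPKM in Pc, against 48.2 and 73.7 FPKM in Epi, and Sqle, squalene epoxidase, 38.2 and 35.6 FPKM in Pc, against 46.3 and 49.3 FPKM in Epi. Of 18 ABC lipid transporters Abca12 alone was called (median -0.09). Further lipid genes fell that were in no list and were chosen after their values were seen. Gltp, a glycolipid transfer protein, measured 133 and 73.9 FPKM in Pc, against 374 and 329 FPKM in Epi (log2 difference of -1.81, SE 0.17, adjusted p = 0.000223). Sult2b1, which adds sulfate to cholesterol, measured 2.65 and 2.06 FPKM in Pc, against 12.5 and 10.8 FPKM in Epi (log2 difference of -1.92, SE 0.20, adjusted p = 0.000310). Nipal4, a gene of inherited ichthyosis in humans, measured 1.93 and 1.15 FPKM in Pc, against 7.03 and 6.64 FPKM in Epi (log2 difference of -1.64, SE 0.20, adjusted p = 0.000619). Gltp, Sult2b1 and Nipal4 kept their calls whichever of the 4 libraries was left out.

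Desmosomes join keratinocytes and anchor their keratins. Of 15 desmosome genes 8 fell and none rose (median -1.35), or 4 without the replicate block, namely Dsc1, Dsg1a, Dsg1b and Dsc2. Dsc1 had a log2 difference of -2.96 (SE 0.23, adjusted p = 0.000179). Dsc2 measured 4.52 and 3.54 FPKM in Pc, against 13.7 and 19.3 FPKM in Epi (log2 difference of -1.79, SE 0.26, adjusted p = 0.00170), and Dsc3, the form of basal cells, 28.9 and 22.9 FPKM in Pc, against 65.5 and 87.7 FPKM in Epi (log2 difference of -1.52, SE 0.37, adjusted p = 0.0329). Dsg1a measured 7.72 and 4.78 FPKM in Pc, against 29.6 and 37.7 FPKM in Epi (log2 difference of -2.28, SE 0.31, adjusted p = 0.00112), and Dsg1b 6.55 and 3.54 FPKM in Pc, against 21 and 26.1 FPKM in Epi (log2 difference of -2.06, SE 0.30, adjusted p = 0.00171), 2 neighbouring copies between which reads may be split. Evpl and Ppl, the plakins envoplakin and periplakin, measured 6.57 and 1.70 FPKM in Pc, against 15.8 and 12 FPKM in Epi, and 29.3 and 13.9 FPKM in Pc, against 72.3 and 63.4 FPKM in Epi. Their log2 differences were -1.71 and -1.69. Jup, or plakoglobin, which also serves adherens junctions, measured 55.6 and 27.2 FPKM in Pc, against 99.4 and 102 FPKM in Epi (log2 difference of -1.35, SE 0.30, adjusted p = 0.0219). Dsp, or desmoplakin, measured 212 and 151 FPKM in Pc, against 324 and 282 FPKM in Epi (log2 difference of -0.75, adjusted p = 0.548), and Perp 590.0 and 717 FPKM in Pc, against 1112 and 1281 FPKM in Epi (log2 difference of -0.87, adjusted p = 0.572), without a call. Pkp1, a plakophilin, measured 90.3 and 70.8 FPKM in Pc, against 143 and 140.2 FPKM in Epi (log2 difference of -0.82, adjusted p = 0.299). Pkp4, another plakophilin, had the opposite sign, with 79.7 and 78.2 FPKM in Pc, against 56.9 and 54.8 FPKM in Epi, where the adjusted p of 0.0181 passed and the log2 difference of 0.49 did not. Dsc1, Dsc2, Dsg1a and Dsg1b kept their calls whichever of the 4 libraries was left out. Dsc3 and Ppl lost their calls whichever library was left out (largest adjusted p 0.220 to 0.283) and Jup lost it without Pc replicate 1 or 2, or Epi replicate 2 (adjusted p up to 0.260). Evpl lost the call without Pc replicate 2 or Epi replicate 2 (adjusted p up to 0.0597).

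Other junctions differed in single genes, beside 0.504% higher and 2.64% lower among all genes. The 1 call among cadherins, protocadherins and catenins is a share of 3.33% lower, near that of all genes. Of 30 cadherins, protocadherins and catenins Pcdh1 alone was called (median 0.20), with 5.31 and 1.81 FPKM in Pc, against 20 and 14.3 FPKM in Epi (log2 difference of -2.09, SE 0.30, adjusted p = 0.00170). Of 33 tight junction genes Ocln and Cgn fell (median -0.11). Ocln, or occludin, measured 2.74 and 2.15 FPKM in Pc, against 6.98 and 8.94 FPKM in Epi (log2 difference of -1.38, SE 0.21, adjusted p = 0.00209), and Cgn, or cingulin, 4.65 and 2.11 FPKM in Pc, against 10 and 6.98 FPKM in Epi (log2 difference of -1.16, SE 0.22, adjusted p = 0.00795). Of 7 connexins and pannexins, Gjb2 rose and Gjb5 fell. Gjb2 measured 172 and 251 FPKM in Pc, against 93.7 and 110.3 FPKM in Epi (log2 difference of 1.02, SE 0.24, adjusted p = 0.0240). Gjb5 measured 0.313 and 0.365 FPKM in Pc, against 3.17 and 1.96 FPKM in Epi (log2 difference of -1.39, SE 0.20, adjusted p = 0.00173). Among 35 adhesion molecules of the immunoglobulin type 3 fell (median 0.24). Pvrl4, or nectin-4, measured 26.2 and 12.1 FPKM in Pc, against 76.8 and 59.2 FPKM in Epi (log2 difference of -1.86). Chl1 measured 2.06 and 1.30 FPKM in Pc, against 6.55 and 7.61 FPKM in Epi (log2 difference of -1.60), and L1cam 1.62 and 0.496 FPKM in Pc, against 4.16 and 4.84 FPKM in Epi (log2 difference of -1.47), both known from neurons and glia. Pcdh1, Ocln and Gjb5 kept their calls whichever of the 4 libraries was left out. Gjb2 lost the call whichever library was left out (adjusted p up to 0.277) and Cgn lost it without Pc replicate 2, or Epi replicate 1 or 2 (adjusted p up to 0.133). Pvrl4 and L1cam lost their calls without Pc replicate 2 or Epi replicate 2 (largest adjusted p 0.132 to 0.166) and Chl1 lost it without Pc replicate 2 (adjusted p up to 0.0591). Pcdh1, Cgn, Gjb2 and Pvrl4 were not called without the replicate block (adjusted p 0.0650 to 0.146).

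Genes for adhesion to the basement membrane had few calls, and these were higher in Pc. None of 13 integrins was called (median 0.35), though Itga6 and Itgb1, subunits of the laminin receptors, passed the p threshold with smaller differences. Itga6 measured 49.2 and 62.8 FPKM in Pc, against 34.4 and 34.3 FPKM in Epi (log2 difference of 0.68, adjusted p = 0.0148). Itgb1 measured 49.7 and 69.6 FPKM in Pc, against 34.5 and 45.2 FPKM in Epi (log2 difference of 0.57, adjusted p = 0.0113). Of 37 laminin and basement membrane genes 2 rose and none fell (median 0.34). Frem1, a basement membrane protein, measured 16.1 and 13.5 FPKM in Pc, against 5.92 and 4.14 FPKM in Epi (log2 difference of 1.40, SE 0.29, adjusted p = 0.0159), and Fn1, or fibronectin, 26.1 and 17.6 FPKM in Pc, against 9.75 and 8.88 FPKM in Epi (log2 difference of 1.12, SE 0.15, adjusted p = 0.00100). Frem1 had its highest mean in the dermal condensate fraction (DC), at 262 FPKM, and 69.7 FPKM in the fibroblast fraction, where Fn1 was highest at 416 FPKM. The summed FPKM of 14 dermal condensate markers was 54.6 and 34.7 in Pc, against 41.4 and 58.1 in Epi, and the summed FPKM of 18 fibroblast markers was 297 and 329 in Pc, against 239 and 259 in Epi. The largest part of the fibroblast sums was Dcn, with 155.9 and 230.2 FPKM in Pc, against 124.1 and 132.6 FPKM in Epi. None of the 17 fibroblast markers above the threshold was called (median -0.02). Of the 17, 7 had a positive and 10 a negative difference. The part of either cell type in the rise of Frem1 and Fn1 was not tested. Of 35 hyaluronan and proteoglycan genes Has3 and Hmmr rose and Cd44 fell (median 0.23). Has3, a hyaluronan synthase, measured 26.8 and 25.8 FPKM in Pc, against 9.88 and 8.88 FPKM in Epi (log2 difference of 1.40, SE 0.24, adjusted p = 0.00493). Hmmr binds hyaluronan and the spindle and is also in the mitosis list. Of 29 matricellular genes Fn1 alone was called, and of 22 collagens none (medians 0.29 and 0.24). Frem1 and Has3 lost their calls without Pc replicate 1 or 2, or Epi replicate 2 (largest adjusted p 0.0771 to 0.190), and Fn1 lost it without Pc replicate 1 (log2 difference of 0.94). Frem1 was not called without the replicate block (adjusted p = 0.0539).

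Surface genes were counted by family, beside 0.504% higher and 2.64% lower among all genes. Of 9 genes of the Ly6/uPAR family, small proteins held by a lipid anchor, 4 fell and none rose (median -0.69). Ly6g6c (chromosome 17, 35067325 to 35070048) measured 0.987 and 0.273 FPKM in Pc, against 22.2 and 13.8 FPKM in Epi (log2 difference of -3.54, SE 0.26, adjusted p = 0.000179). Ly6d measured 4.54 and 1.85 FPKM in Pc, against 22.6 and 27.1 FPKM in Epi (log2 difference of -2.70, SE 0.30, adjusted p = 0.000385), Ly6g6e 5.08 and 1.47 FPKM in Pc, against 26.4 and 17.8 FPKM in Epi (log2 difference of -2.55, SE 0.33, adjusted p = 0.000867) and Lypd3 13.2 and 3.80 FPKM in Pc, against 45.8 and 35.8 FPKM in Epi (log2 difference of -2.33, SE 0.42, adjusted p = 0.00704). Ly6 genes lie in clusters of related copies. Of 29 CD antigens 3 fell and none rose (median -0.16). Cd44, the hyaluronan receptor, measured 18.7 and 15.6 FPKM in Pc, against 52.4 and 78.6 FPKM in Epi (log2 difference of -1.85, SE 0.19, adjusted p = 0.000297), and its mean was 183 FPKM in Mc. Cd109 measured 5.21 and 3.78 FPKM in Pc, against 11.4 and 14.3 FPKM in Epi (log2 difference of -1.34), and Cd52, known from leukocytes, 0.155 and 0 FPKM in Pc, against 1.05 and 1.94 FPKM in Epi (log2 difference of -1.19). None of 16 tetraspanins was called (median -0.10). Cd9 measured 152 and 142 FPKM in Pc, against 212 and 227 FPKM in Epi (log2 difference of -0.58, adjusted p = 0.0498). Ly6g6c, Ly6d, Ly6g6e and Cd44 kept their calls whichever of the 4 libraries was left out. Cd52 lost the call whichever library was left out (adjusted p up to 0.385) and Cd109 lost it without Pc replicate 2, or Epi replicate 1 or 2 (adjusted p up to 0.220). Lypd3 lost the call without Pc replicate 2 or Epi replicate 2 (adjusted p up to 0.107). Cd109 and Cd52 were not called without the replicate block (adjusted p 0.0540 to 0.156).

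Of 61 G protein-coupled receptors 10 fell and none rose (median -0.15). Gpr111 and Gpr115, neighbouring adhesion-type receptors, measured 0.776 and 0.421 FPKM in Pc, against 4 and 5.33 FPKM in Epi, and 0.733 and 0.621 FPKM in Pc, against 3.61 and 3.84 FPKM in Epi. Their log2 differences were -1.82 and -1.49. Gpr160 measured 2.13 and 1.24 FPKM in Pc, against 5.82 and 7.33 FPKM in Epi (log2 difference of -1.51, SE 0.29, adjusted p = 0.00987). Ptger3, a prostaglandin E2 receptor, measured 1.21 and 0.678 FPKM in Pc, against 3.95 and 3.76 FPKM in Epi (log2 difference of -1.33, SE 0.19, adjusted p = 0.00162), and Ccr4, a chemokine receptor, 0.274 and 0.106 FPKM in Pc, against 1.52 and 2.22 FPKM in Epi (log2 difference of -1.26, SE 0.16, adjusted p = 0.000748). Ednrb, the endothelin receptor of melanoblasts, measured 2.35 and 2.45 FPKM in Pc, against 7.68 and 13.6 FPKM in Epi (log2 difference of -1.73, SE 0.18, adjusted p = 0.000310) and 333 FPKM in Mc, and is also a melanocyte marker. Of 188 solute carriers 2 rose and 7 fell (median -0.04), a share of falls near that of all genes, among them Slc9a3r1, a scaffold protein that is no transporter. Slc14a1, a urea transporter, and Slc24a3, a sodium/calcium exchanger, rose, with 2.91 and 1.06 FPKM in Pc, against 0.218 and 0.231 FPKM in Epi, and 2.72 and 3.48 FPKM in Pc, against 0.605 and 1.43 FPKM in Epi. Slc7a11, the cystine transporter, fell most, with 4.23 and 2.55 FPKM in Pc, against 18.1 and 25.5 FPKM in Epi (log2 difference of -2.38, SE 0.26, adjusted p = 0.000354). Of 53 ion channels 4 fell and none rose (median -0.10). Ano7, of the anoctamin family, measured 4.38 and 1.34 FPKM in Pc, against 18 and 15.8 FPKM in Epi (log2 difference of -2.33). Aqp3, a water and glycerol channel of keratinocytes, measured 13 and 6.93 FPKM in Pc, against 28.9 and 25.6 FPKM in Epi (log2 difference of -1.42). Gpr111, Gpr115, Ptger3, Ccr4, Ednrb, Slc7a11 and Ano7 kept their calls whichever of the 4 libraries was left out. Slc24a3 and Aqp3 lost their calls whichever library was left out (largest adjusted p 0.297 to 0.367) and Slc14a1 lost it without Pc replicate 1, or Epi replicate 1 or 2 (adjusted p up to 0.123). Gpr160 lost the call without Pc replicate 2 or Epi replicate 2 (adjusted p up to 0.147). Slc24a3 and Aqp3 were not called without the replicate block (adjusted p 0.128 to 0.275).

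Other surface and trafficking genes that fell were chosen after their values were seen. Il22ra1, a subunit of the interleukin 22 receptor, measured 2.04 and 1.04 FPKM in Pc, against 8.28 and 8.43 FPKM in Epi (log2 difference of -1.91, SE 0.21, adjusted p = 0.000354). Rab25, a GTPase of epithelial recycling endosomes, measured 20.9 and 9.64 FPKM in Pc, against 97.1 and 79.4 FPKM in Epi (log2 difference of -2.54, SE 0.44, adjusted p = 0.00560). Mgst1, a microsomal glutathione transferase, measured 84.1 and 75.5 FPKM in Pc, against 317 and 433 FPKM in Epi (log2 difference of -2.20, SE 0.18, adjusted p = 0.000223). Gsta2 measured 4.18 and 4.03 FPKM in Pc, against 29.3 and 29.6 FPKM in Epi (log2 difference of -2.58, SE 0.39, adjusted p = 0.00213), and Gsta1 0.519 and 0.631 FPKM in Pc, against 5.18 and 4.68 FPKM in Epi (log2 difference of -1.91, SE 0.16, adjusted p = 0.000223), copies between which reads may be split. Il22ra1, Mgst1, Gsta2 and Gsta1 kept their calls whichever of the 4 libraries was left out. Rab25 lost the call without Pc replicate 2 or Epi replicate 2 (adjusted p up to 0.0863). Rab25 was not called without the replicate block (adjusted p = 0.132).

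Among cytoskeletal lists the keratins had the largest share of lower genes. Of 13 keratins 6 fell and none rose (median -0.19), Krt77, Krt1, Krt10, Krt4, Krt19 and Krt23. Krt23 measured 0.305 and 0.103 FPKM in Pc, against 1.98 and 1.86 FPKM in Epi (log2 difference of -1.28, SE 0.14, adjusted p = 0.000354). Of 14 other intermediate filament and plakin genes the calls were Evpl and Ppl. Actin genes gave few calls, 1 higher and 1 lower of 47 actin and myosin genes (median 0.01) and 1 higher and 4 lower of 95 actin regulators (median 0.01). The shares that fell were 2.13% and 4.21%, beside 2.64% of all genes. The shares that rose were 2.13% and 1.05%, on 1 gene each, beside 0.504% of all genes. Mybpc1, a myosin-binding protein known from slow muscle, rose, with 13 and 13.8 FPKM in Pc, against 4.81 and 4.69 FPKM in Epi (log2 difference of 1.33, SE 0.27, adjusted p = 0.0136). The mean of Mybpc1 was highest in the negative fraction, at 23.5 FPKM. The summed FPKM of the 12 skeletal muscle markers was 13.3 and 12.8 in Pc and 7.12 and 15.7 in Epi. Acta1 was listed at 0. Mylpf measured 5.66 and 6.91 FPKM in Pc, against 1.80 and 4.04 FPKM in Epi (log2 difference of 0.95, adjusted p = 0.436). Actc1 measured 6.03 and 4.57 FPKM in Pc, against 3.83 and 9.82 FPKM in Epi (log2 difference of -0.21, adjusted p = 0.95). The other markers of the list were below the threshold. The part of muscle RNA in the rise of Mybpc1 was not tested. Myo5b, a motor of recycling endosomes, fell, with 1.12 and 0.444 FPKM in Pc, against 4.69 and 4.58 FPKM in Epi (log2 difference of -1.69, SE 0.19, adjusted p = 0.000427). Diap3, a formin, rose, with 29.1 and 41.6 FPKM in Pc, against 13.3 and 21.2 FPKM in Epi (log2 difference of 1.01, SE 0.18, adjusted p = 0.00493). Ablim1, an actin-binding LIM protein, fell, with 35.1 and 28.6 FPKM in Pc, against 75.5 and 79.3 FPKM in Epi (log2 difference of -1.26, SE 0.23, adjusted p = 0.00743). Krt23 and Myo5b kept their calls whichever of the 4 libraries was left out. Mybpc1 lost the call whichever library was left out (adjusted p up to 0.153) and Diap3 lost it without Pc replicate 1 or 2, or Epi replicate 1 (adjusted p up to 0.0605). Ablim1 lost the call without Pc replicate 2 or Epi replicate 2 (adjusted p up to 0.110). Diap3 was not called without the replicate block (adjusted p = 0.356).

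None of 80 tubulin and microtubule genes (median 0.15) and none of 52 cilium genes (median 0.19) was called. Tubb5, a beta-tubulin, passed the p threshold with a smaller difference, at 659 and 618 FPKM in Pc, against 391 and 394 FPKM in Epi (log2 difference of 0.70, adjusted p = 0.0204). Tuba1b, an alpha-tubulin, did so at 1019.8 and 999.6 FPKM in Pc, against 728 and 675 FPKM in Epi (log2 difference of 0.53, adjusted p = 0.0146), and Stmn1, which destabilises microtubules, at 657 and 641 FPKM in Pc, against 501 and 426 FPKM in Epi (log2 difference of 0.49, adjusted p = 0.0387).

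Transcription factors were counted in 4 lists. In the homeobox list 1 of 68 rose and 2 fell (median 0.18), in the zinc finger list 1 of 90 rose and 6 fell (median 0.03), in the bHLH and bZIP list 1 of 81 rose and 3 fell (median -0.09), and in the remaining families 3 of 200 rose and 5 fell (median 0.04). The share that fell was 2.94%, 6.67%, 3.7% and 2.5% in this order, near the 2.64% of all genes in all but the zinc finger list. The share that rose was 1.11% to 1.5%, on 1 to 3 genes a list, beside 0.504% of all genes. The factors that rose were Lhx2, Trps1, Ascl4, Foxi3, Relb and Etv4. Those that fell include several known from differentiating epidermis. Grhl1 and Grhl3, grainyhead factors, measured 10.1 and 4.87 FPKM in Pc, against 30.7 and 33.7 FPKM in Epi, and 36.1 and 18.5 FPKM in Pc, against 88.3 and 84.8 FPKM in Epi. Their log2 differences were -2.04 (SE 0.39) and -1.70 (SE 0.40). Ovol1, which restrains proliferation of keratinocytes, measured 3.69 and 1.70 FPKM in Pc, against 10.3 and 10.9 FPKM in Epi (log2 difference of -1.71, SE 0.32, adjusted p = 0.00769). Foxn1, the nude gene, measured 3.30 and 1.60 FPKM in Pc, against 10.4 and 11.3 FPKM in Epi (log2 difference of -1.82, SE 0.22, adjusted p = 0.000498). Zbtb7b measured 2.21 and 0.704 FPKM in Pc, against 6.93 and 7.56 FPKM in Epi (log2 difference of -1.82, SE 0.23, adjusted p = 0.000702), and Sp6, also called epiprofin, 5.96 and 3.18 FPKM in Pc, against 18.9 and 16.3 FPKM in Epi (log2 difference of -1.78, SE 0.27, adjusted p = 0.00215). Dlx5, a distal-less homeobox factor, measured 8.09 and 3.17 FPKM in Pc, against 23.6 and 18.9 FPKM in Epi (log2 difference of -1.85, SE 0.36, adjusted p = 0.00962), and Hopx, an atypical homeodomain protein, 0.965 and 0.382 FPKM in Pc, against 2.72 and 3.27 FPKM in Epi (log2 difference of -1.28). Plagl1, an imprinted zinc finger gene, measured 26.1 and 19.1 FPKM in Pc, against 56.6 and 74.9 FPKM in Epi (log2 difference of -1.50). Thrb, a thyroid hormone receptor, measured 1.40 and 0.835 FPKM in Pc, against 5.15 and 5.61 FPKM in Epi (log2 difference of -1.60). Foxn1, Zbtb7b, Sp6 and Hopx kept their calls whichever of the 4 libraries was left out. Grhl3 lost the call whichever library was left out (adjusted p up to 0.273) and Grhl1, Ovol1, Dlx5 and Plagl1 lost theirs without Pc replicate 2 or Epi replicate 2 (largest adjusted p 0.0605 to 0.147). Thrb lost the call without Pc replicate 2 (adjusted p up to 0.0785). Grhl3, Dlx5 and Plagl1 were not called without the replicate block (adjusted p 0.0665 to 0.165).

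Immediate early genes, which cells induce within minutes of a stimulus, had 4 of 28 lower in Pc and none higher (median -0.19). Zfp36, which destabilises cytokine mRNA, measured 11 and 6.31 FPKM in Pc, against 38 and 27.2 FPKM in Epi (log2 difference of -1.82, SE 0.19, adjusted p = 0.000297). Fos measured 6.18 and 2.24 FPKM in Pc, against 19.2 and 12.5 FPKM in Epi (log2 difference of -1.77, SE 0.18, adjusted p = 0.000297), Egr1 25.3 and 12.4 FPKM in Pc, against 63 and 32.7 FPKM in Epi (log2 difference of -1.30, SE 0.23, adjusted p = 0.00593) and Klf4, also a factor of the epidermal barrier, 9.35 and 5.02 FPKM in Pc, against 17.6 and 16.7 FPKM in Epi (log2 difference of -1.20, SE 0.26, adjusted p = 0.0174). Replicate 1 was above replicate 2 in both fractions for all 4. Zfp36 and Fos kept their calls whichever of the 4 libraries was left out. Klf4 lost the call without Pc replicate 1 or 2, or Epi replicate 2 (adjusted p up to 0.217), and Egr1 lost it without Pc replicate 2 or Epi replicate 1 (adjusted p up to 0.0985). Fos, Egr1 and Klf4 were not called without the replicate block (adjusted p 0.222 to 0.365). None of 27 glycolysis and hypoxia genes (median -0.03) and none of 18 interferon response genes (median -0.13) was called. Gapdh measured 1614 and 1338 FPKM in Pc, against 1506 and 1318 FPKM in Epi, and Rps27, a ribosomal protein gene, 7634 and 10133 FPKM in Pc, against 11754 and 9831 FPKM in Epi. None of the 8 genes with the highest mean FPKM was called. These were Mir703, Rps27, Snora33, Rpl41, Rpl23a, Rpl32, Rpl38 and Ppia, which are small RNA genes, ribosomal protein genes and a cyclophilin.

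Most melanocyte markers were lower in Pc. At this age melanoblasts, the precursors of pigment cells, are known to spread through the epidermis. Of 18 melanocyte markers 12 fell and none rose (median -1.48), or 6 without the replicate block. Pmel, a protein of melanosome fibres, measured 6.03 and 6.60 FPKM in Pc, against 41.4 and 49 FPKM in Epi (log2 difference of -2.65, SE 0.41, adjusted p = 0.00292), at a locus that overlaps Dgka. Dct, a pigment enzyme, measured 18.4 and 15.6 FPKM in Pc, against 92.8 and 132 FPKM in Epi (log2 difference of -2.64, SE 0.54, adjusted p = 0.0223). Mlana measured 3.80 and 2.48 FPKM in Pc, against 16.5 and 27.2 FPKM in Epi (log2 difference of -2.44, SE 0.41, adjusted p = 0.00445), Tyrp1, another pigment enzyme, 0.265 and 0.326 FPKM in Pc, against 4.88 and 6.78 FPKM in Epi (log2 difference of -2.39, SE 0.31, adjusted p = 0.000841) and Gpnmb, a melanosome glycoprotein, 1.53 and 2.07 FPKM in Pc, against 8.70 and 15.7 FPKM in Epi (log2 difference of -2.19, SE 0.31, adjusted p = 0.00158). Ptgds, a prostaglandin D synthase, measured 10.2 and 7.94 FPKM in Pc, against 41.2 and 42 FPKM in Epi (log2 difference of -2.09). The summed FPKM of 20 markers was 113 and 122 in Pc, against 323 and 449.7 in Epi and 10196 and 8224 in Mc, which puts Pc at 1.27% and Epi at 4.20% of Mc. Both shares include Rab38, which was lower in Mc than in Pc or Epi. It measured 51.0 and 63.1 FPKM in Pc and 74.0 and 89.0 FPKM in Epi, with a mean of 40.4 FPKM in Mc. Rab38 thus raised both shares, and it made up a larger part of the Pc sums than of the Epi sums. No marker was at 0 in all 4 libraries. Of the 309 lower genes, 19 had a mean in Mc at least 5 times that in Epi. Pmel, Tyrp1 and Gpnmb kept their calls whichever of the 4 libraries was left out. Dct and Ptgds lost their calls whichever library was left out (largest adjusted p 0.200 to 0.338) and Mlana lost it without Pc replicate 2 or Epi replicate 2 (adjusted p up to 0.0785). Ptgds was not called without the replicate block (adjusted p = 0.103). Ptgds had a mean of 1465 FPKM in Mc. Ptgds, Ednrb, Mitf, Slc45a2 and Slc24a5 are also counted in other lists, as is Mc1r, a melanocyte receptor outside the marker list. The part of melanocyte RNA in those calls was not tested.

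Summed markers of each remaining cell type were lower in Pc and in Epi than in another sorted fraction. The 2 macrophage and leukocyte genes called, Tyrobp and Lyz2, were lower in Pc, of 7 above the threshold (median -0.83). Tyrobp, an adaptor of myeloid cells, measured 0.945 and 0.580 FPKM in Pc, against 4.49 and 5.58 FPKM in Epi (log2 difference of -1.78, SE 0.30, adjusted p = 0.00397), and Lyz2, a lysozyme, 0.461 and 0.323 FPKM in Pc, against 1.38 and 2.46 FPKM in Epi (log2 difference of -1.04, SE 0.26, adjusted p = 0.0358). The summed FPKM of the 17 markers found was 49.2 and 26.3 in Pc and 40.3 and 39.8 in Epi, overlapping between the fractions. The mean sum was 11.6% of that of the negative fraction in Pc and 12.3% in Epi. The overlap rests on Cd74, the invariant chain, with 39.1 and 18.8 FPKM in Pc, against 22 and 8.41 FPKM in Epi (log2 difference of 0.94, adjusted p = 0.205). The mean of Cd74 was 28.9 FPKM in Pc, 15.2 FPKM in Epi and 20.6 FPKM in the negative fraction. Without Cd74, left out after its values were seen, the other 16 markers summed to 10.1 and 7.53 in Pc, against 18.3 and 31.4 in Epi. Lyz2 lost the call whichever library was left out (adjusted p up to 0.365) and Tyrobp lost it without Pc replicate 2 or Epi replicate 2 (adjusted p up to 0.0737). Lyz2 was not called without the replicate block (adjusted p = 0.193). The Schwann cell list had L1cam lower, of 7 above the threshold, with sums of 33.4 and 28.3 in Pc and 38.4 and 39.4 in Epi. No endothelial (7), erythroid (5), dermal condensate (3), Merkel cell (2), mast cell (2) or skeletal muscle (2) marker above the threshold was called. Merkel cell sums were 4.34 and 3.09 in Pc and 3.55 and 2.46 in Epi, with Insm1 and Pou4f3 listed at 0, and Fcer1a and Mcpt4 of mast cells were listed at 0 as well. Erythroid sums, mostly globins, were 142 and 161 in Pc, against 173 and 273.5 in Epi and 44571 and 55995.5 in the negative fraction. Mir1983 was listed at 0 in both Pc libraries and at 25.5 and 30.4 FPKM in Epi, and no fold is given for it.

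**Figure D4:**
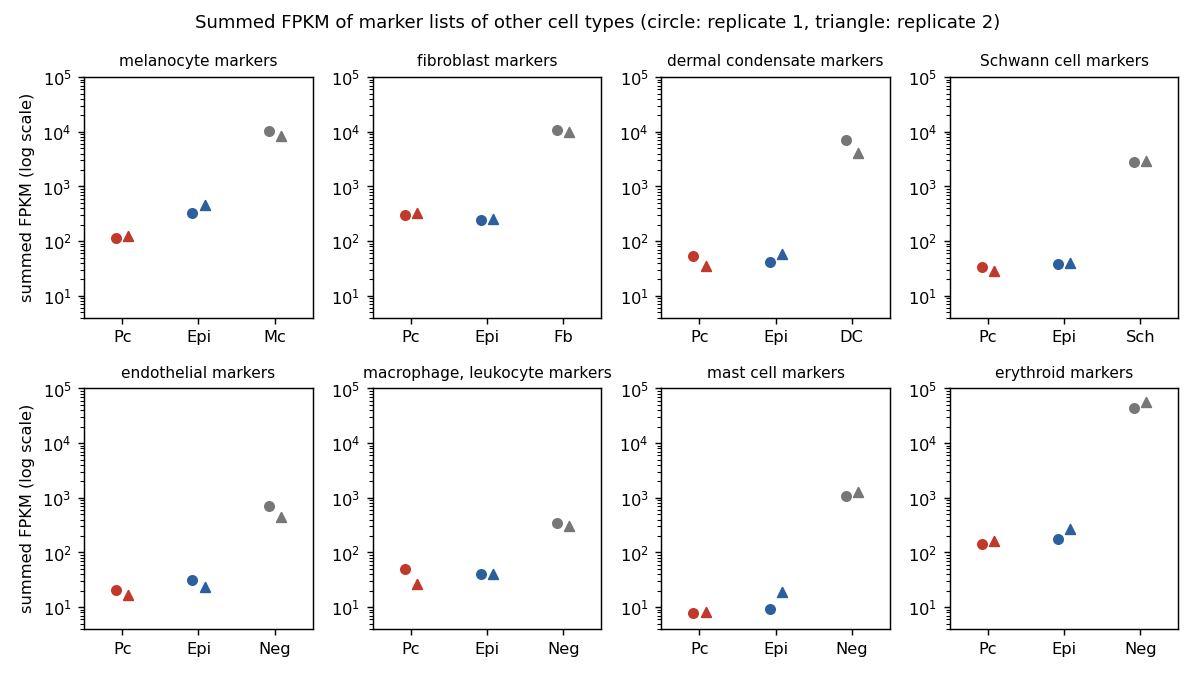
Summed FPKM (log scale) of marker lists of 8 other cell types in the Pc libraries (red), the Epi libraries (blue) and 1 other sorted fraction (grey, named under each panel), with a circle for replicate 1 and a triangle for replicate 2. Melanocyte sums are 113 and 122 in Pc and 323 and 449.7 in Epi, macrophage and dermal condensate sums overlap between Pc and Epi (the macrophage sums through Cd74 alone), and all Pc and Epi sums lie below those in grey.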

How the data were processed

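The authors deposited 1 table of FPKM values with 23235 rows and a column for each of 16 libraries, 2 for each of 8 sorted fractions. The submitters' processing notes name Cufflinks 2.1.1, TopHat2 2.0.3, Bowtie2 and the build mm10, with no role or setting. Whether values were also scaled between libraries, the depth of the libraries and the strand setting are not stated in the sources used here. Reads of overlapping genes cannot be told apart and no counting interval can be given. FPKM is relative to its own library, and low values rest on few fragments.

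The pseudocount was 1, so differences of log2(FPKM + 1) understate the change of low genes. limma 3.58.1 (R 4.3.3) was applied to the 14171 rows with at least 1 FPKM in at least 2 of the 16 libraries, with a mean for each fraction, the replicate number as a block, and a trended and robust spread shared by all fractions. Benjamini-Hochberg adjustment ran over all 14171 rows, and every adjusted p in the text is from this fit or a named alternative to it. Genes were called at an adjusted p under 0.05 and a log2 difference of 1 or more in size. The fit was tested on simulated data first. Whether the replicate numbers pair the libraries was checked from deviations from the fraction means, which correlated across genes at 0.148 to 0.656 over the 28 pairs of fractions, and at 0.411 for Pc with Epi. By this check libraries of the same number deviated together. It cannot show whether they came from the same embryos, and Pc correlated more with the fibroblast fraction (0.605) than with Epi.

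The genes compared and the 65 gene lists were chosen with earlier results of these data known, so the lists were counted and not tested. Genes were named from the given markers, the 12 genes with the largest called difference in each direction among those with at least 5 FPKM, up to 6 called members of each list and direction, the most abundant members of short or uncalled lists and of the whole table, and genes of counts of 5 or fewer. Genes chosen outside this rule are marked, and those it names that are not described are covered by the counts of their lists or, for Pif1 and the most abundant rows, by the totals. Promoters are those of RefSeq on GRCm38.p6, and figures were drawn with matplotlib 3.10.9 in Python 3.11.15. The alternatives tried were no replicate block, a pseudocount of 0.1, no filter on low values, only rows above the threshold in the 4 libraries, only those 4 libraries, libraries rescaled to the same total, quantile normalization, and each of the 4 libraries left out. A few named items, among them 1 gene list, are not reported here.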

Additional observations from a re-analysis of the deposited data

How the results depend on the processing

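With no replicate block, 22 genes were higher and 194 lower in Pc, in place of 59 and 309. Of the 275 genes named by rule, 155 were called in the main fit, and 56 of these 155 lost their call without the block. A fit of only the 4 Pc and Epi libraries, with the pairing kept, called 0 genes higher and 0 lower with limma. Its smallest adjusted p was 0.0873, while 2555 genes had an unadjusted p under 0.05, among them 367 of the 368 called genes. That fit has fewer samples to estimate the spread from. Rescaling the libraries to the same total gave 101 higher genes. A pseudocount of 0.1 gave 68 higher and 234 lower genes, and under it 56 of the 155 named and called genes lost their call as well. With 1 library left out, the counts ran from 28 to 66 higher and from 150 to 285 lower genes, and a fraction left with 1 library was assumed to vary like the others. None of the genes named by rule that was called in any of these fits changed direction.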
